A study of Mus musculus with 24 samples.

Results

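The cortex of THAP1 knockout mice was compared with the cortex of control mice on 8 of the 24 arrays of the study, 4 labelled Cortex Nestin THAP1 KO and 4 labelled Cortex Nestin Con. The arrays were chosen by these titles, and all 11114 genes that passed the filter on dim probes were tested. Conditional THAP1 knockout mice and controls were profiled on Illumina bead arrays when 21 days old, with 4 arrays for each genotype in each of cortex, cerebellum and striatum. RNA came from frozen tissue. The design text gives 4 conditional knockout and 4 WT mice, the labels call the second genotype control, and both groups carry the word Nestin in their titles. The sources used here name neither the strain nor the THAP1 alleles. Nestin is the neural progenitor gene whose regulatory sequence drives recombination in neural stem cells and their descendants, the neurons, astrocytes and oligodendrocytes, so microglia and blood vessel cells lie mostly outside such a deletion. KO arrays are called by their label numbers 13, 14, 15 and 16, and control arrays by 9, 10, 11 and 12. Which mouse gave which array is not stated. The p-values of differences measure only the spread between arrays of a group, pooled over all 24 arrays, and that spread may be technical.

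THAP1 is a zinc finger transcription factor of the THAP family that binds short DNA sequences near promoters, and mutations of its gene cause an inherited dystonia in people. Oligodendrocytes wrap axons in myelin, a stack of membranes held together by a few abundant proteins and rich in galactolipids and cholesterol. In the mouse cortex at weaning, myelin is being laid down and mature oligodendrocytes are being added.

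Values below are normalized intensities on a log2 scale after background correction, with an offset of 16 that shrinks differences of dim genes. A probe's brightness depends on its sequence, so levels are compared between arrays and not between genes. Of the 11114 genes, 9733 were detected on at least 4 of the 8 cortex arrays, 8301 on all 8 and 305 on none. KO arrays detected 12760 to 13612 of 25697 probes, and control arrays detected 12142 to 13371. Pairs of cortex arrays of one genotype had correlations of 0.983 to 0.990 over genes. Pairs of different genotypes had 0.981 to 0.988, a range that overlaps the first. The list of 20 measured cortical excitatory neuron markers was higher in control cortex than in control cerebellum by a median of 1.16, and higher than in control striatum by 0.68. Of 9 cerebellar neuron markers, 5 were detected on none of the 8 cortex arrays. Eif2s3y, a gene of the Y chromosome, was near 7 on KO arrays 15 and 16 and control arrays 10 and 12, and near 4 on the others, so each group holds arrays of both kinds.

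Thap1 itself was measured by 3 probes, and the files do not place them on the gene. The brightest gave 6.48, 6.10, 6.02 and 6.00 on the KO arrays, against 5.74, 5.37, 5.55 and 4.67 on the control arrays. All KO values of this probe lay above all control values, by 0.82 ± 0.22 (SE), but the difference did not pass the test (adjusted p = 0.0829, limma with Benjamini-Hochberg adjustment over 11114 genes). A second probe gave 4.46, 4.38, 4.55 and 4.24 on the KO arrays, against 5.06, 5.81, 5.74 and 5.30 on the control arrays. Detection on 0 KO arrays and on 4 control arrays gave p = 0.0286 in a two-sided Fisher's exact test, and the probe was at least 1.51-fold lower in KO cortex (adjusted p = 0.0015 over 14994 probes in limma). The third, detected on 0 KO arrays and 3 control arrays (p = 0.143 in the same exact test), was at least 1.18-fold lower, with an adjusted p of 0.277 over probes in limma. A probe that lies outside a deleted part of the gene checks nothing about the deletion, and these probes could not be placed.

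A gene was called when its adjusted p was under 0.05 in limma, with KO minus control as the difference. In cortex 61 genes were called. Of these 25 were higher in KO, which is 0.225% of the genes tested, and 36 were lower in KO, which is 0.324%. A name was available for 56 of the 61, and 60 of the 61 had groups that did not overlap. For comparison, the KO and control groups were separated with KO above for 494 genes, or 4.44%, and with KO below for 415 genes, or 3.73%. Before adjustment, 647 genes (5.82%) were higher and 525 (4.72%) were lower in KO at a p under 0.05. Over all genes the median difference was 0.01, and 48.6% of genes lay below 0. The falls included 11 of more than 1 log2 unit and the rises included 2. With arrays scaled to a common median in place of quantile normalization, the median gene lay 0.13 higher in KO, and 27 genes were called, of which 66.7% were higher in KO, against 41.0% in the main setting. The count also depended on single arrays: it was 16 without KO array 16, 25 without KO array 15, 27 without KO array 14, 31 without control array 9, 33 without control array 12 and 38 without control array 10.

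The sequences just upstream of 3 genes with large falls are shown because the letters that published work gives for THAP1-type and YY1-type sites, TNNGGGCA and AAGATGGCG, lie in them. They are RefSeq promoter sequence of GRCm38.p6, read 5′ to 3′ on the strand of the gene, with the matching letters in capitals. In Cuedc2 (chr19:46338689-46338748, minus strand) the capitals match TNNGGGCA and start at position -62 from the annotated start. In Ech1 (chr7:28825181-28825240, plus strand) the first capitals match TNNGGGCA read on the opposite strand, at position -131, and the second match AAGATGGCG. In Prepl (chr17:85090295-85090354, minus strand) the capitals match AAGATGGCG, at position -54 from one annotated start and -61 from another.
Cuedc2: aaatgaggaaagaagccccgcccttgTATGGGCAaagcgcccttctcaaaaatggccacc
Ech1: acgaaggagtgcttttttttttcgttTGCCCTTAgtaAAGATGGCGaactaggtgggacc
Prepl: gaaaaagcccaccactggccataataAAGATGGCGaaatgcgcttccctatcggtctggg

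The table of promoters, from 250 bases before to 50 bases after a start, matched 49 of the 56 called genes with a name and 8265 of all genes tested. Each motif was searched on both strands, and a match of one may overlap a match of another. A gene was counted once if any of its promoters matched. The 8265 genes had 10753 promoters, so a gene with several starts had more chances of a match. TNNGGGCA was in a promoter of 8 of 27 called falls (29.6%) and of 6 of 22 called rises (27.3%), against 1414 of all 8265 genes (17.1%). The exact 95% binomial intervals were 13.8% to 50.2% for the falls and 10.7% to 50.2% for the rises. Both hold the share of all 8265 genes and cover counting error only. In the 250 bases before the start alone, the shares were 25.9% of the falls, 13.6% of the rises and 14.8% of all 8265 genes. AAGATGGCG was in 2 of the 27 falls (7.41%) and in 0 of the 22 rises, against 276 of the 8265 genes (3.34%). The exact interval for the falls was 0.91% to 24.3%. ACTACAATT, given for sites of the related factor THAP11, was in 0 of either set and in 68 of the 8265 genes (0.823%). Cln3 held none of the 3 motifs in the 250 bases before either of its annotated starts. A match is a description of letters and not of a bound site.

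The 3 largest falls set KO and control cortex far apart, as the plot of leading genes shows. Cuedc2 encodes a ubiquitin-binding CUE domain protein. Its values were 7.36, 7.32, 7.36 and 7.54 on the KO arrays, against 10.33, 10.41, 10.44 and 10.42 on the control arrays. The groups were separated by a gap many times the spread within either, a fall of 3.00 ± 0.14 (SE; 0.125 of the control level; adjusted p = 7.31e-15 in limma). Ech1 encodes an isomerase that mitochondria and peroxisomes use to break down unsaturated fatty acids. Its values were 7.02, 7.18, 7.25 and 6.79 on the KO arrays, against 9.87, 9.65, 9.48 and 9.81 on the control arrays. The groups did not overlap, and Ech1 fell by 2.64 ± 0.13 (SE; adjusted p = 4.72e-14 in limma). Cln3, a membrane protein of lysosomes that is lost in juvenile neuronal ceroid lipofuscinosis, was at 5.23, 5.26, 4.76 and 5.33 in KO cortex, against 6.86, 6.96, 7.06 and 7.04 in control cortex. Array 15 was the low one of the KO group, where the probe was detected on 3 arrays. Cln3 fell by 1.84 ± 0.17 (SE; adjusted p = 6.69e-08 in limma), and its difference was -0.79 without background correction.

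**Figure D1:**
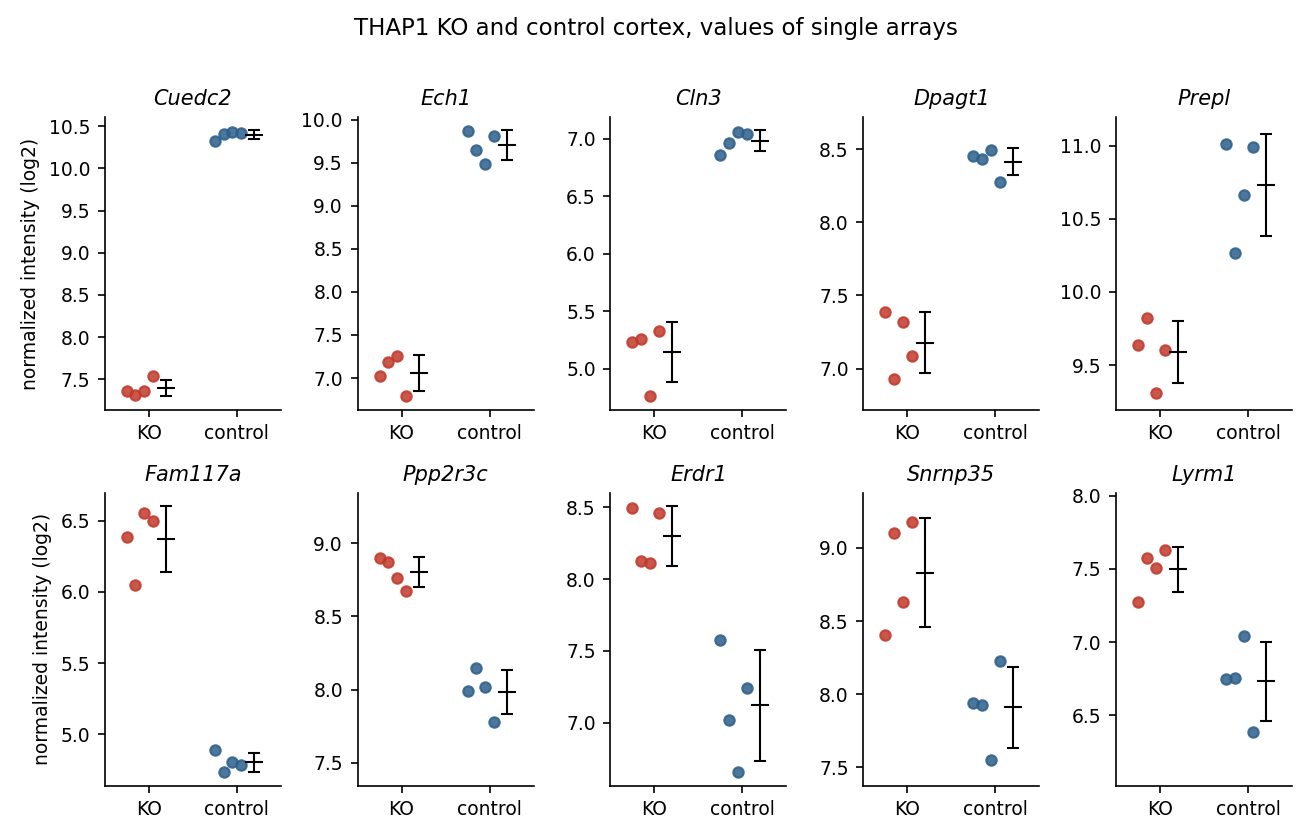
Normalized intensity (log2) of 5 genes that fell and 5 that rose, with KO arrays in red on the left and control arrays in blue on the right of each panel. Each point is 1 array, the bars give mean ± SD (n = 4 each), axes do not start at 0, and the groups do not overlap in any of the 10 panels.

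The next falls were of about 1 log2 unit. Dpagt1, the enzyme of the first step in building the lipid-linked sugar chain for N-glycosylation, was at 7.38, 6.93, 7.32 and 7.08 in KO cortex, against 8.45, 8.43, 8.50 and 8.28 in control cortex. It fell by 1.24 ± 0.15 (SE; adjusted p = 2.39e-05 in limma) with no overlap. Prepl, a serine hydrolase related to prolyl oligopeptidase, was at 9.63, 9.82, 9.31 and 9.60 in KO cortex, against 11.01, 10.26, 10.66 and 10.99 in control cortex. Control array 10 was nearest to the KO arrays, and Prepl fell by 1.14 ± 0.19 (SE; adjusted p = 0.00154 in limma). Grb14, an adaptor that inhibits the insulin receptor, fell by 1.18 (adjusted p = 0.0178 in limma). A second Grb14 probe, detected on 2 arrays of each group, had a difference of -0.002, and Grb14 was not called with the mean of its probes. E430018J23Rik fell by 1.06 and Zfp747, a zinc finger gene, by 1.01, with adjusted p-values of 4.17e-04 and 5.15e-04 in limma. The last pair are near neighbours on chromosome 7 with 2 protein-coding genes between them.

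Another pair of called falls on chromosome 7 are direct neighbours, Cln3 and Apobr, a receptor for apolipoprotein B. Apobr was detected on 0 KO arrays and 2 control arrays and was at least 1.13-fold lower (adjusted p = 0.047 in limma). Chromosome 7 held 9 of the 56 named calls, 16.1%, and 7.75% of the 10238 named genes tested. Next to Cuedc2 on chromosome 19, Mfsd13a had a difference of -0.72 ± 0.18 (SE) with separated groups, short of the threshold (adjusted p = 0.0533 in limma). Next to Dpagt1, the histone variant gene H2ax had a difference of -0.59 ± 0.15 (SE) with separated groups (adjusted p = 0.0744 in limma). In cerebellum and striatum Mfsd13a had differences of -1.49 and -0.87. Further from Ech1, Sirt2 and Eif3k had differences of -0.48 and -0.43 with separated groups (adjusted p = 0.101 and 0.436 in limma). Others were near 0, such as Fbxl15 on the other side of Cuedc2 at 0.04, and Hnrnpl and Lgals4 directly beside Ech1 at -0.08 and -0.12. Of 34 measured genes within 5 protein-coding genes of Cuedc2, Ech1, Cln3, Dpagt1 or Prepl, 14 lay below 0, with a median of 0.05. Of the 34, 5 had separated groups with KO below and 0 with KO above, and Apobr was the 1 called. Of all genes tested, 3.73% were separated with KO below and 4.44% with KO above, and 0.324% were called lower. The neighbours were looked up after the leading falls were known.

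Further falls had sizes between 0.34 and 0.94. Slc5a6, the transporter of biotin and pantothenate, was at 7.82, 7.65, 7.63 and 7.59 in KO cortex, against 8.35, 8.26, 8.43 and 8.27 in control cortex, and fell by 0.65 ± 0.12 (SE; adjusted p = 0.00799 in limma). Glrx5, a mitochondrial protein of iron-sulphur cluster assembly, fell by 0.50 (adjusted p = 0.0113 in limma). Slc5a6 and Glrx5 were called whichever single array was left out, and not under median scaling. Chchd10, a mitochondrial protein of the space between the membranes, fell by 0.34, the smallest size among the 61 calls. The remaining named falls outside the oligodendrocyte lists were Lpar1 at -0.94, Sgk2 at -0.81, Slc44a1 at -0.75, Tprn at -0.74, Slc10a4 at -0.73, Chst7 at -0.72, Skap2 at -0.70, Mif4gd at -0.60 and Bloc1s5 at -0.48. A further 4 called falls were of probes without a gene name. Lpar1 is a receptor for lysophosphatidic acid and Slc44a1 a choline transporter. A second Slc10a4 probe, detected on 0 KO and 0 control arrays, had a difference of 0.04, and Slc10a4 was not called with the mean of its probes.

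The largest rise was that of Fam117a, at 6.39, 6.05, 6.56 and 6.50 in KO cortex, against 4.89, 4.73, 4.81 and 4.78 in control cortex. It was detected on 4 KO arrays and 1 control array, and rose by 1.57 ± 0.20 (SE; adjusted p = 2.62e-05 in limma), with a difference of 0.56 to 1.68 over the alternatives. Erdr1 was at 8.49, 8.13, 8.11 and 8.46 in KO cortex, against 7.57, 7.02, 6.65 and 7.24 in control cortex. Its controls spread over almost a log2 unit and still lay below all KO arrays, with a rise of 1.18 ± 0.19 (SE; adjusted p = 0.00123 in limma). Ppp2r3c, a regulatory subunit of protein phosphatase 2A, was at 8.90, 8.87, 8.76 and 8.68 in KO cortex, against 7.99, 8.15, 8.02 and 7.78 in control cortex. It rose by 0.82 ± 0.11, the smallest SE of these rises (adjusted p = 1.08e-04 in limma).

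Snrnp35, a protein of the minor spliceosome that removes U12-type introns, was at 8.41, 9.11, 8.63 and 9.18 in KO cortex, against 7.94, 7.93, 7.55 and 8.22 in control cortex. KO arrays 14 and 16 were the high ones, and Snrnp35 rose by 0.92 ± 0.17 (SE; adjusted p = 0.00799 in limma); without KO array 16 the adjusted p was 0.0545. Of 5 measured minor spliceosome proteins it was the only called one, and the list median was -0.03. Tra2a, a splicing regulator, was at 10.04, 10.08, 10.14 and 9.76 in KO cortex, against 9.37, 9.58, 9.42 and 9.27 in control cortex, and rose by 0.59 ± 0.12 (SE; adjusted p = 0.0178 in limma). Hnrnph1, which binds G-rich RNA, rose by 0.55 (adjusted p = 0.029), Tia1, a protein of stress granules, by 0.81 (adjusted p = 0.0345), and Smg1, a kinase of nonsense-mediated decay, by 0.63 (adjusted p = 0.0267), all in limma. Pus10, a pseudouridine synthase, rose by 0.79 and Zcchc7, a cofactor of nuclear RNA decay, by 0.52. Hnrnpdl rose by 0.64 but was the 1 call whose groups overlapped, with KO values of 9.78, 9.57, 9.77 and 9.43, against 8.97, 9.43, 8.77 and 8.80 in control cortex. A second Hnrnpdl probe went the other way, with a difference of -0.33 (adjusted p = 0.783 over probes in limma), and with the mean of both probes the difference was 0.16 (adjusted p = 0.834 in limma). Hnrnpdl was called in 8 of 20 alternative settings, and other calls were as unsteady, with Mif4gd called in 6 and Iqcj in 8.

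The other named rises were 6430411K18Rik at 0.89, Chic1 at 0.84, Slx4ip at 0.83, Gpbp1l1 at 0.78, Ccnc at 0.78, Lyrm1 at 0.76, Eml5 at 0.72, Snhg11 at 0.68, Atxn3 at 0.68, Iqcj at 0.67, Jazf1 at 0.59, Cdc7 at 0.58 and Fbxo3 at 0.51. A second, dimmer Fbxo3 probe had a difference of -0.14 (adjusted p = 0.899 over probes in limma), and Fbxo3 was not called with the mean of its probes. Lyrm1 was at 7.28, 7.57, 7.51 and 7.63 in KO cortex, against 6.75, 6.75, 7.04 and 6.38 in control cortex (adjusted p = 0.0191 in limma). Ccnc encodes cyclin C of the Mediator kinase module, Cdc7 a kinase of replication origins, and Atxn3 the deubiquitinase whose repeat expansion causes a spinocerebellar ataxia. Among all 25 rises, 6 had probes detected on fewer than 4 control arrays, and among the 36 falls, 4 had probes detected on fewer than 4 KO arrays. KO cortex arrays detected 13148 probes on average, against 12544 on control arrays.

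Of the 41 gene lists, the lists of mature oligodendrocyte genes held the most called falls. The lists and their members were chosen with earlier results of these data known, so this ranking is a description and not a test. In RNA of whole tissue, fewer oligodendrocytes and less RNA per oligodendrocyte cannot be told apart. Of 14 measured myelin membrane proteins, 11 lay below 0, and 9 had all KO arrays below all control arrays, against 3.73% of all genes. Of the 14, 7 were called lower, against 0.324% of all genes, and 0 higher. The median difference was -0.59, against 0.01 over all genes. Mag, an adhesion protein of the innermost myelin wrap, was at 12.00, 11.62, 11.90 and 11.56 in KO cortex, against 12.63, 12.60, 12.50 and 12.40 in control cortex. Its groups did not overlap, and Mag fell by 0.77 ± 0.15 (SE; adjusted p = 0.0178 in limma). Opalin, a glycoprotein of oligodendrocyte membranes, was at 8.96, 8.62, 8.36 and 8.15 in KO cortex, against 10.04, 9.52, 9.51 and 9.44 in control cortex. Control array 9 was the highest and KO array 16 the lowest, and Opalin fell by 1.11 ± 0.22 (SE; adjusted p = 0.0153 in limma). Mal, a proteolipid that sorts myelin proteins, was at 10.10, 9.66, 9.98 and 9.26 in KO cortex, against 10.95, 10.72, 10.55 and 10.23 in control cortex, and fell by 0.86 (adjusted p = 0.0285 in limma). Tspan2 fell by 0.69, Pllp by 0.75 and Mobp by 0.68.

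Mbp, the basic protein that compacts the inner faces of myelin, was at 14.08, 13.87, 14.05 and 13.97 in KO cortex, against 14.41, 14.44, 14.38 and 14.25 in control cortex. The groups did not overlap, and Mbp fell by 0.38 ± 0.08 (SE; adjusted p = 0.0331 in limma). A second Mbp probe, at a mean of 11.64 in KO and 12.36 in control cortex, had a difference of -0.72 (adjusted p = 0.14 over probes), and another, at 8.44 in KO and 8.43 in control cortex, one of 0.02 (adjusted p = 0.986). Mog, a protein of the outermost myelin surface, was at 10.45, 10.23, 10.20 and 9.57 in KO cortex, against 10.98, 10.92, 10.90 and 10.63 in control cortex. Its groups were separated, with a difference of -0.74 ± 0.18 (SE) and an adjusted p of 0.0535, and its second probe gave -0.78 with an adjusted p of 0.0283 over probes in limma. Mobp had 3 probes, with differences of -0.68, -1.20 and -0.73. In all, 20 called genes had 25 further probes that passed the filter, of which 21 had the same direction and 2 were called over probes, 1 of Mal and 1 of Mobp.

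Of 27 measured soluble and cytoskeletal proteins of mature oligodendrocytes, 23 lay below 0, with a median of -0.47. Of the 27, 13 had separated groups with KO below, against 3.73% of all genes. In this list 4 were called lower, against 0.324% of all genes, and 0 higher. Cnp, a phosphodiesterase of uncompacted myelin, was at 11.17, 10.82, 10.81 and 10.43 in KO cortex, against 11.81, 11.48, 11.75 and 11.49 in control cortex, and fell by 0.83 ± 0.19 (SE; adjusted p = 0.0345 in limma). Gamt, an enzyme of creatine synthesis, fell by 0.77, and Evi2a by 0.76. Ppp1r14a, an inhibitor of myosin phosphatase, was at 5.78, 6.03, 5.68 and 5.52 in KO cortex, against 7.09, 6.85, 6.28 and 6.89 in control cortex, and fell by 1.03 ± 0.24 (SE; adjusted p = 0.0394 in limma). None of these had overlapping groups.

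The number of oligodendrocyte genes called depended on the setting. Over 20 alternative settings, Opalin and Mag were called in 16, Tspan2 in 15, and Mal and Pllp in 11. Evi2a was called in 12, Mobp and Gamt in 9, Mbp in 8, and Cnp and Ppp1r14a in 7. Without KO array 16 or without control array 9, 0 of the 14 myelin membrane proteins were called, and 1 was without KO array 14, 2 without control array 11, and 3 each without KO array 15 and without control array 10. Under median scaling 0 were called, while their median was -0.49, or -0.61 relative to the median of all genes in that setting. Leaving out single arrays moved the median between -0.64 and -0.48. Of the soluble and cytoskeletal list, 0 to 2 members were called without a single array and 0 under median scaling, and that list's median was -0.44 relative to all genes under median scaling. KO array 16 had the lowest list mean of the KO arrays for both lists and control array 9 the highest of the controls.

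**Figure D2:**
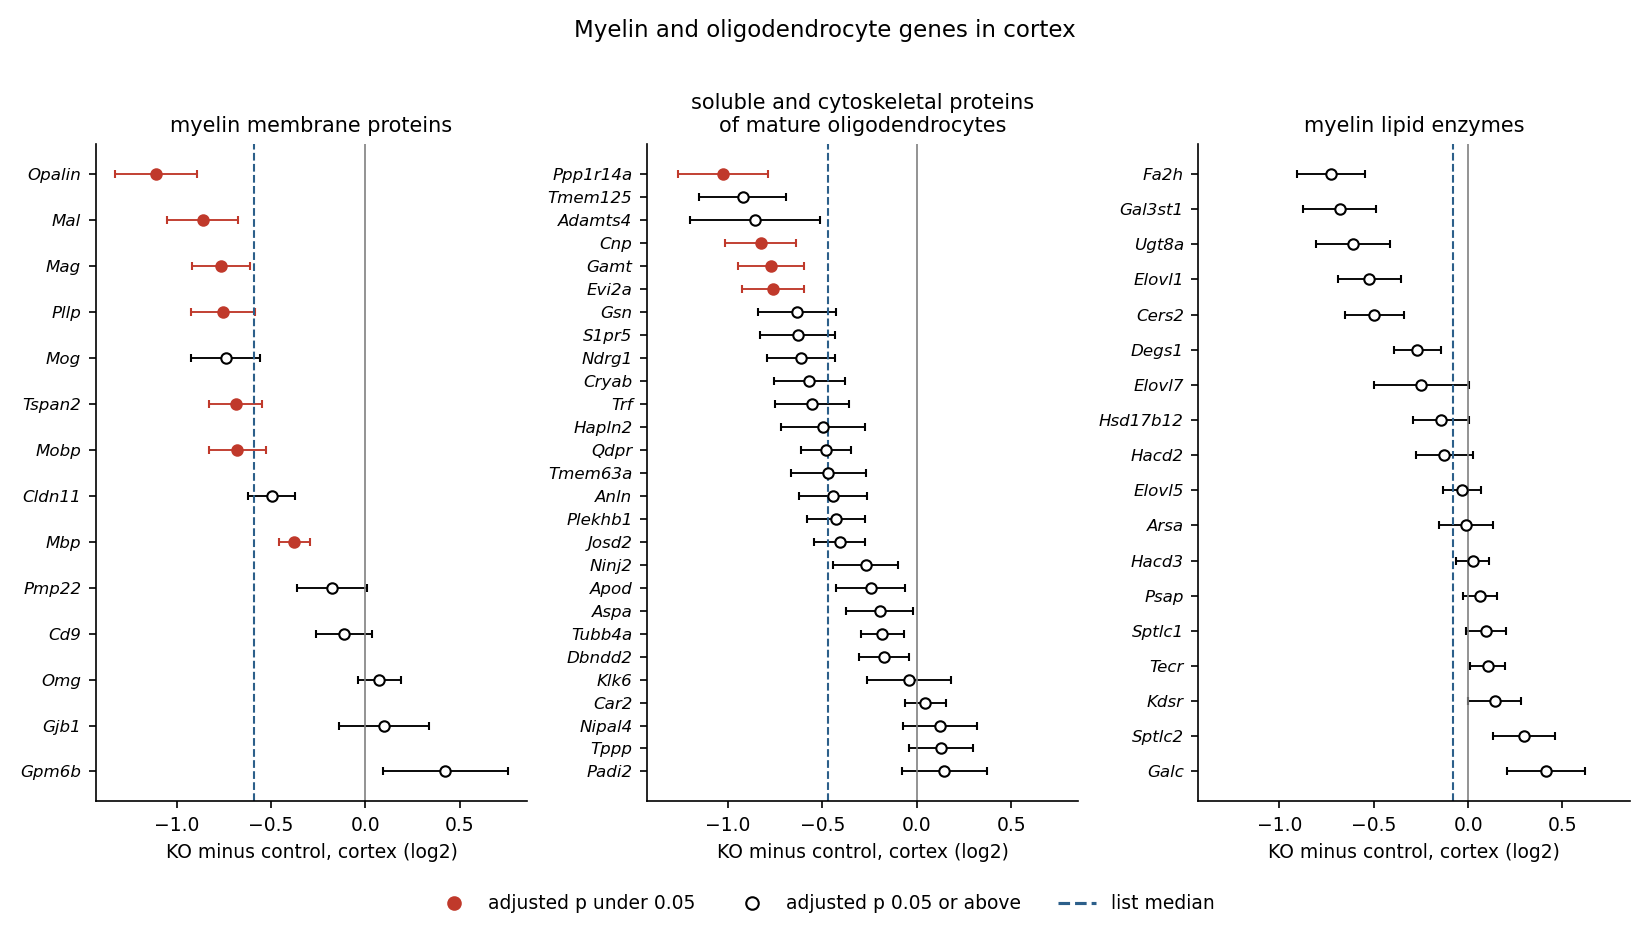
Difference of KO minus control cortex (log2) for each measured member of 3 oligodendrocyte gene lists, with SE from limma. Filled red points have an adjusted p under 0.05, open points do not, the grey line marks 0 and the dashed line the list median, which is -0.59, -0.47 and -0.08 from left to right.

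Of 18 measured enzymes of myelin lipids, 11 lay below 0, 6 had separated groups with KO below, and 0 were called (6 lower and 0 higher at an unadjusted p under 0.05 in limma). Of all genes, 3.73% had separated groups with KO below and 4.72% were lower unadjusted. Fa2h, which makes hydroxylated fatty acids for myelin galactolipids, was at 9.99, 9.35, 9.71 and 9.21 in KO cortex, against 10.44, 10.29, 10.38 and 10.06 in control cortex, a difference of -0.73 ± 0.18 (SE; adjusted p = 0.0566 in limma). Ugt8a and Gal3st1, which make galactocerebroside and sulphatide, had differences of -0.61 and -0.68, and Cers2, the ceramide synthase for very long chains, -0.50, with adjusted p-values of 0.18, 0.11 and 0.16 in limma. The list median was -0.08, and under median scaling it was 0.07, below the median of all genes there. Of 19 cholesterol synthesis genes 0 were called (1 higher and 0 lower unadjusted), with a median of -0.07 that was 0.03 under median scaling.

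Among transcription factors of the oligodendrocyte lineage and markers of its earlier stages 0 were called. Of 7 oligodendrocyte transcription factors 6 lay below 0 (0 higher and 1 lower unadjusted in limma), with a median of -0.25. Olig1, needed for maturation of oligodendrocytes, was at 12.01, 11.64, 11.78 and 11.58 in KO cortex, against 12.38, 11.95, 12.09 and 12.39 in control cortex. Its groups overlapped, with a difference of -0.45 ± 0.14 (SE; adjusted p = 0.137 in limma). Of 15 markers of precursors and newly formed oligodendrocytes 2 were lower and 0 higher unadjusted, and the median was -0.06, or 0.02 under median scaling. Enpp6, a marker of newly formed oligodendrocytes, had the smallest p of these, at 8.97, 8.92, 8.74 and 8.63 in KO cortex, against 9.54, 9.18, 9.38 and 9.55 in control cortex, a difference of -0.59 ± 0.17 (SE; adjusted p = 0.102 in limma).

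Markers of other cells were measured beside these genes, with 0 called in each of the lists that follow by limma. Of 13 astrocyte markers 7 lay below 0, and the list mean was between 8.78 and 9.04 on the KO arrays, against 8.75 and 9.00 on the control arrays. Of 20 cortical excitatory neuron markers 8 lay below 0, with list means of 8.51 to 8.67 in KO cortex, against 8.48 to 8.59 in control cortex. Of 13 pan-neuronal markers 2 lay below 0, with list means of 11.01 to 11.21 in KO, against 10.99 to 11.08 in control cortex. These ranges overlapped, and at an unadjusted p under 0.05 the 3 lists held 0, 2 and 1 higher and 0 lower genes. Of 11 microglia markers 10 lay below 0, with a median of -0.24 and list means of 7.17 to 7.57 in KO, against 7.49 to 7.70 in control cortex, where KO arrays 15 and 16 were the low ones. Aif1 and Ctss of that list had differences of -0.39 and -0.50 with adjusted p-values of 0.436 in limma, and 2 members were lower and 0 higher unadjusted. A second Aif1 probe had a difference of -0.07 (adjusted p = 0.943 over probes in limma).

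**Figure D3:**
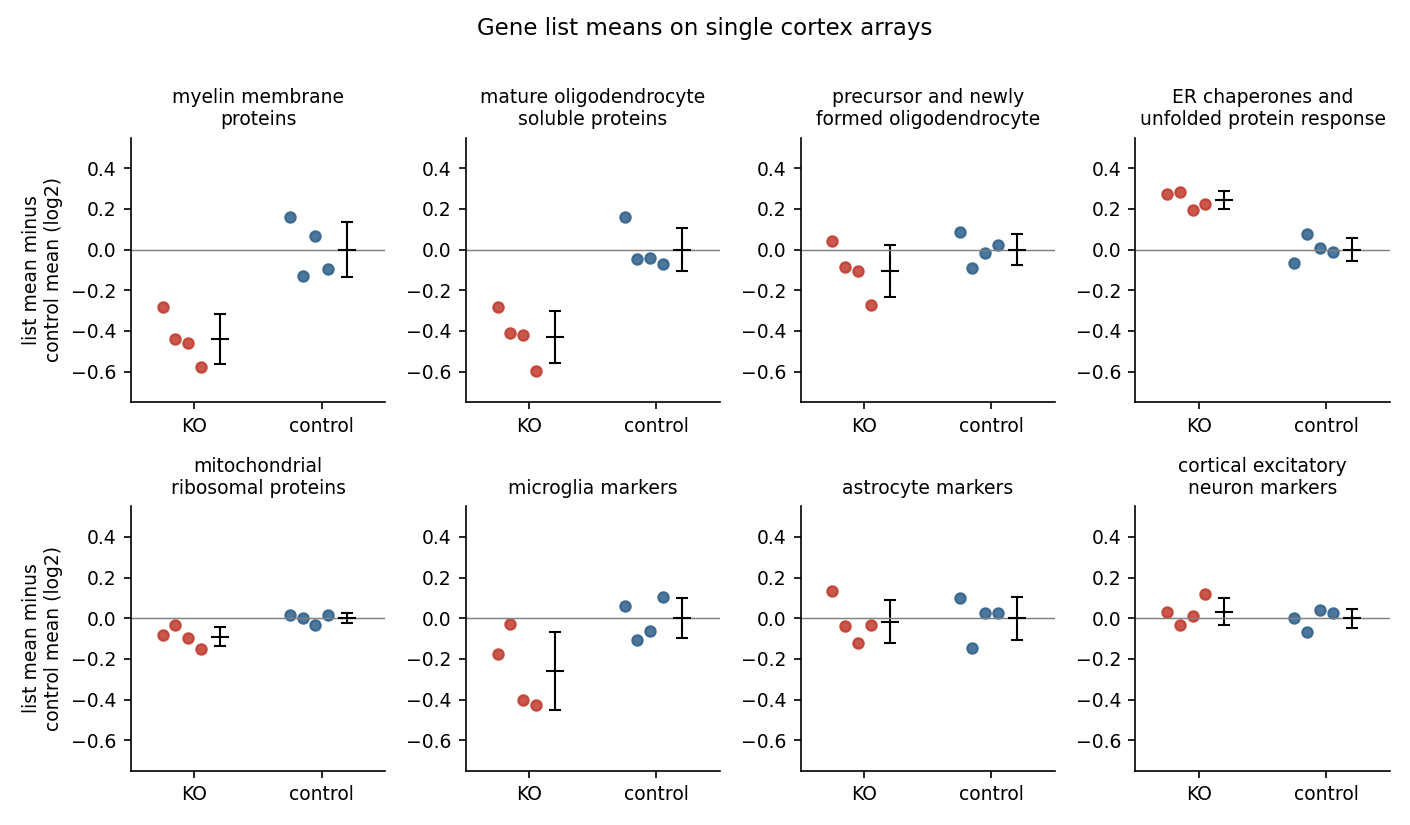
Mean of each gene list on each cortex array, as the difference from the mean of the control arrays (log2), with KO arrays in red on the left and control arrays in blue on the right. Points are arrays and bars are mean ± SD (n = 4 each). Both mature oligodendrocyte lists and, narrowly, the mitochondrial ribosomal proteins lie lower on all KO arrays, and the endoplasmic reticulum chaperones lie higher. Astrocyte, excitatory neuron, microglia and precursor lists overlap. Some lists not shown, such as the myelin lipid enzymes and the ATF4 targets, also had list means that did not overlap.

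Markers of tissue next to the cortex varied between arrays. The choroid plexus list of 6 genes had a mean of 5.84 on KO array 16 and 7.14 to 7.35 on the other KO arrays, against 7.16 to 7.78 on the control arrays. The hypothalamic list of 4 genes ran from 5.00 to 5.69 on the KO arrays, against 5.40 to 6.51 on the control arrays. Oxt and Pmch were detected on 0 KO arrays, and on 2 and 1 control arrays. The red blood cell list of 4 genes had means of 5.60 to 6.68 on the KO arrays, against 5.95 to 7.72 on the control arrays. For 9 striatal neuron markers the list means were 8.06 to 8.40 on the KO arrays, against 8.34 to 8.46 on the control arrays. In these 4 lists 0 genes were called, and 2, 0, 1 and 2 were lower and 0 higher at an unadjusted p under 0.05 in limma. The part of these in the oligodendrocyte differences was not tested.

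Chaperones of the endoplasmic reticulum and genes of the unfolded protein response, which help fold secreted and membrane proteins, lay above 0 for 12 of 14 measured members. The median was 0.26, and 4 members had all KO arrays above all control arrays, against 4.44% of all genes. None was called, and 5 were higher and 0 lower at an unadjusted p under 0.05 in limma. Of all genes, 5.82% were higher and 4.72% lower unadjusted. Dnajc3, an inhibitor of the eIF2 kinases, was at 8.12, 8.15, 8.07 and 7.96 in KO cortex, against 7.69, 7.82, 7.68 and 7.44 in control cortex, a difference of 0.42 ± 0.13 (SE; adjusted p = 0.161 in limma). Creld2 had a difference of 0.43 and the disulphide isomerase Pdia4 one of 0.43, both with separated groups and with adjusted p-values of 0.19 and 0.252. A second Creld2 probe had a difference of 0.18 with overlapping groups (adjusted p = 0.783 over probes in limma). The list mean was 8.88 to 8.98 on the KO arrays, against 8.63 to 8.77 on the control arrays, and the median was 0.24 to 0.45 over the alternatives. Of 28 targets of ATF4 and the integrated stress response, which eIF2 phosphorylation sets off, 19 lay above 0 and 0 were called (5 higher and 1 lower unadjusted), with a median of 0.10.

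Among mitochondrial genes, of 79 subunits of the respiratory chain and ATP synthase 58 lay below 0, with a median of -0.09 and 0 called (14 lower and 3 higher at an unadjusted p under 0.05 in limma). Cox5a, a subunit of cytochrome c oxidase, was at 12.38, 12.34, 12.42 and 12.28 in KO cortex, against 12.61, 12.80, 12.63 and 12.65 in control cortex, a difference of -0.31 ± 0.08 (SE; adjusted p = 0.0566 in limma) with separated groups. Of 71 mitochondrial ribosomal proteins 52 lay below 0, with a median of -0.11 and 0 called (11 lower and 1 higher at an unadjusted p under 0.05). Beside these counts, 4.72% of all genes were lower and 5.82% higher unadjusted, and 48.6% lay below 0. Under median scaling the medians of these lists were 0.01 and 0.04, below the 0.13 of all genes. Of 21 genes of fatty acid oxidation Ech1 was the 1 called (4 lower and 0 higher unadjusted), and the list median was -0.07, or 0.07 under median scaling. Of 11 ceroid lipofuscinosis genes Cln3 was the 1 called (1 lower and 0 higher unadjusted), with a median of -0.03 that was 0.16 under median scaling. Of 27 genes of N-glycan assembly Dpagt1 was the 1 called, with a median of -0.04, or 0.15 under median scaling.

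Among neuronal genes, 13 of 19 glutamate and GABA receptor subunits lay above 0, with 0 called (3 higher and 0 lower at an unadjusted p under 0.05 in limma, against 5.82% and 4.72% of all genes). Their median was 0.15. That median was 0.05 without background correction, 0.07 with the authors' values, 0.09 with an offset of 50 and 0.10 without KO array 15. Gria3, a subunit of AMPA receptors, was at 7.79, 7.81, 8.06 and 7.76 in KO cortex, against 7.28, 7.39, 7.50 and 7.24 in control cortex, a difference of 0.50 ± 0.15 (SE; adjusted p = 0.131 in limma) with separated groups. Of 53 potassium channel subunits 35 lay above 0, with 0 called (5 higher and 1 lower unadjusted). Of 15 other inherited dystonia genes 0 were called (1 higher and 2 lower unadjusted), with a median of -0.08 that was 0.03 under median scaling. Of 8 genes of the THAP family and its cofactors 0 were called (1 higher and 0 lower unadjusted, Thap1 itself), and Hcfc1, a cofactor of THAP1, had a difference of 0.27 (adjusted p = 0.693 in limma). Acetylcholinesterase, Ache, had a difference of -0.65 with separated groups (adjusted p = 0.0768 in limma). The other 14 lists were those of nodes of Ranvier, vessel cells, GABAergic interneurons, hippocampal neurons, meningeal fibroblasts, eIF2 kinases with eIF2B, cytosolic ribosomes, proteasomes, histones, other lysosomal genes, immediate early genes, synaptic vesicles, the cell cycle, and cholinergic and monoamine genes, to which Ache belongs. Their medians were between -0.16 and 0.09, or -0.09 and 0.23 under median scaling, where 8 of them changed sign, and 0 of their members were called (5 higher and 16 lower unadjusted in limma).

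The same 61 genes were looked up on the arrays of the other regions. These may come from the same mice, since the labels do not say which mouse gave which array, and the fit treated all 24 arrays as independent, with no block for the mouse. Over all genes tested, 26 were called in cerebellum and 60 in striatum. In cerebellum 11 of the 61 were also called and 57 had the same sign. In striatum 22 were also called and 52 had the same sign. The same-sign counts are given without the share over all genes, so they cannot be judged against it. Of the 61, 21 rises and 17 falls were called in neither cerebellum nor striatum. A call in one region and not in another does not show a difference between them. The 36 falls had a median of -0.23 in cerebellum and -0.73 in striatum, and the 25 rises had medians of 0.18 and 0.23. These genes were chosen by their difference in cortex, so their cortex values in the plot of the 3 regions are larger by selection.

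**Figure D4:**
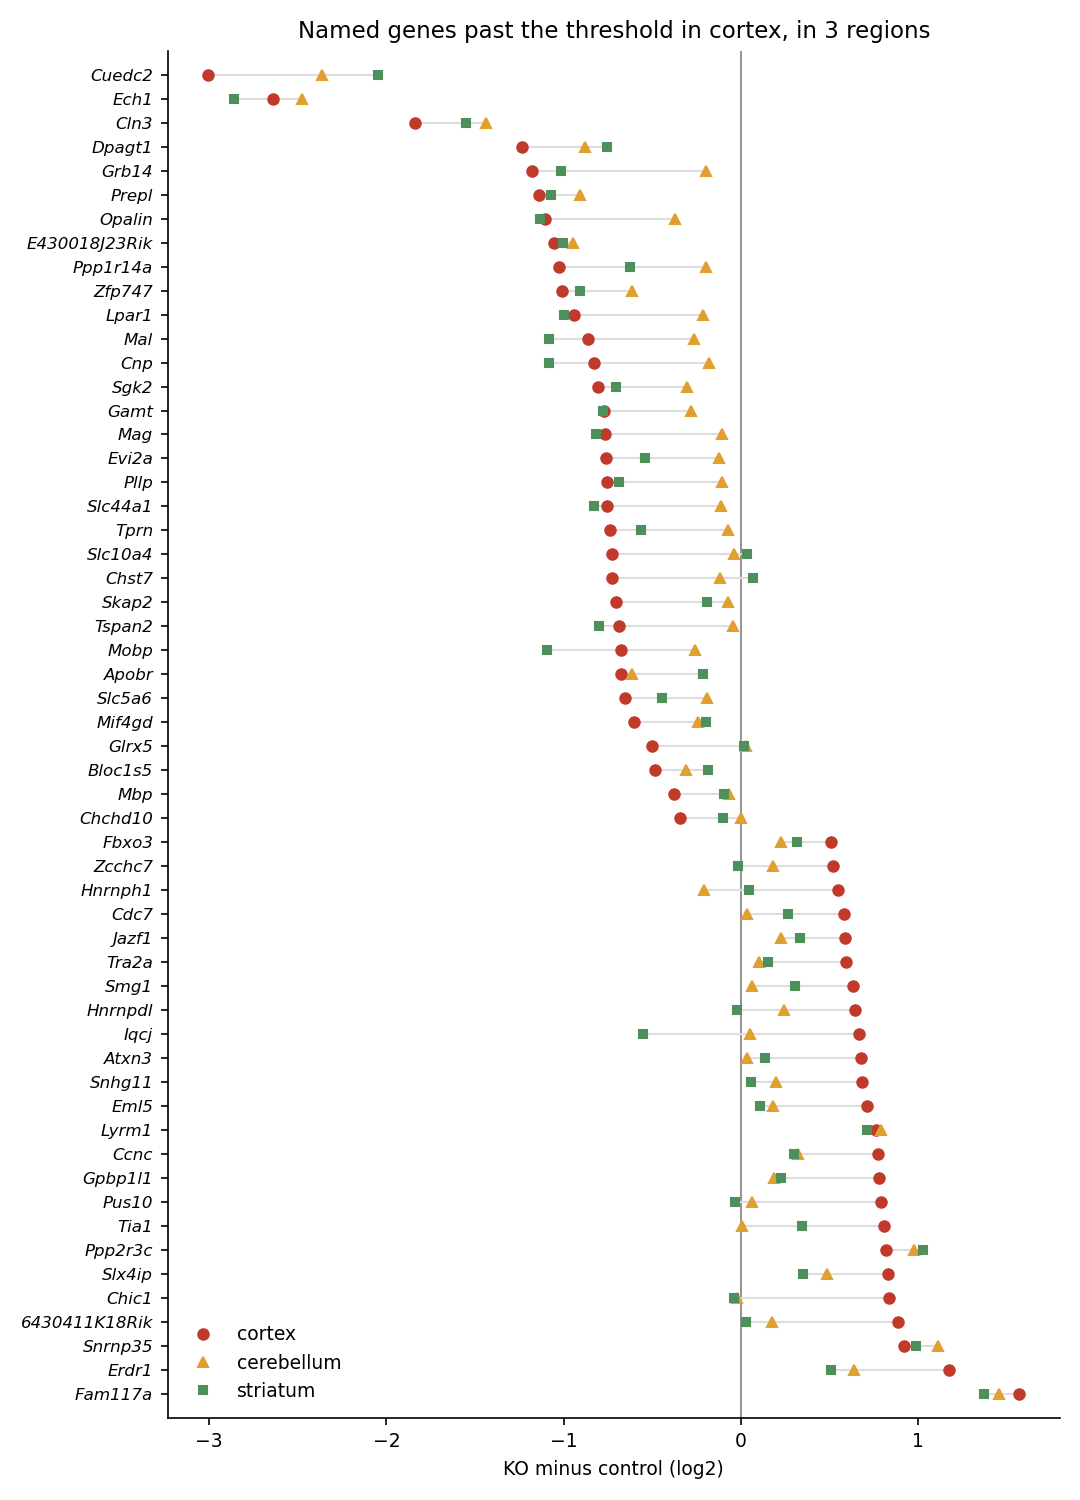
Difference of KO minus control (log2) in cortex (red circles), cerebellum (orange triangles) and striatum (green squares) for the 56 named genes called in cortex, ordered by the cortex difference. Cuedc2, Ech1 and Cln3 lie at the far left in all 3 regions, and Mag lies at -0.11 in cerebellum, -0.77 in cortex and -0.82 in striatum.

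The difference of the KO effects between regions was tested directly. Between cortex and cerebellum 1 of 11114 genes passed, or 0.009%, and 434 had an unadjusted p under 0.05 in limma. Between cortex and striatum 1 of 11114 passed, again 0.009%, and 484 had an unadjusted p under 0.05 in limma. Fxyd6, a regulator of the sodium pump, was 0.78 higher in its KO effect in cortex than in cerebellum (adjusted p = 0.0313 in limma). In cortex it was at 12.30, 12.30, 12.37 and 12.38 on the KO arrays, against 12.05, 12.21, 12.28 and 12.24 on the control arrays, and was not called there (0.14; adjusted p = 0.646). In cerebellum it averaged 10.72 ± 0.13 on KO and 11.35 ± 0.19 on control arrays (SD, n = 4 each). Iqcj, which encodes an IQ motif protein, was 1.22 higher in its KO effect in cortex than in striatum (adjusted p = 0.0453 in limma). In cortex it was at 5.45, 5.68, 5.39 and 5.23 on the KO arrays, against 4.89, 4.63, 4.55 and 5.00 on the control arrays, and rose by 0.67 (adjusted p = 0.0331), with detection on 4 KO arrays and 1 control array. In striatum it averaged 5.41 ± 0.23 on KO and 5.96 ± 0.21 on control arrays (SD, n = 4 each). Between cortex and cerebellum 0 genes passed without any single array but control 11, and between cortex and striatum 0 without any but KO 16 and control 12.

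For myelin membrane proteins the median KO effect was -0.59 in cortex, -0.14 in cerebellum and -0.65 in striatum. None of the 14 passed the test of the difference between cortex and cerebellum (lowest adjusted p = 0.99; 6 at an unadjusted p under 0.05 in limma) or between cortex and striatum (1 unadjusted). Mag averaged 11.77 ± 0.22 in KO and 12.53 ± 0.10 in control cortex, and 12.66 ± 0.19 in KO and 12.76 ± 0.14 in control cerebellum (SD, n = 4 each). Cuedc2 averaged 7.40 ± 0.10 in KO and 10.40 ± 0.05 in control cortex, 8.01 ± 0.35 in KO and 10.38 ± 0.16 in control cerebellum, and 7.81 ± 0.25 in KO and 9.86 ± 0.10 in control striatum (SD, n = 4 each). Its KO levels lay below its control levels by more than the spread between arrays in all 3 regions. The list of chaperones of the endoplasmic reticulum had medians of 0.26 in cortex, 0.40 in cerebellum and 0.21 in striatum, with 0 members called in any of them.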

How the data were processed

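Per the labels' protocols, total RNA was taken with TriZol and turned into biotin-labelled cRNA. Per the file headers, the deposited table gives a raw, linear bead intensity and a detection p-value for each of 25697 probes on 24 arrays. The submitters' processing notes name BeadStudio, without a version. The authors' processed intensity table was used as an alternative: its array medians were 11.6, its lowest values were below 0, and its scaling is not stated.

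Background was corrected with limma 3.58.1 in R 4.3.3 (normexp with noise inferred from the detection p-values, offset 16), followed by log2 and quantile normalization. The files give 49.2% of detection p-values as exactly 0. Of 25697 probes, 14994 were kept, those whose detection p was below 0.01 on 4 or more of the 24 arrays, and the brightest probe stood for a gene, which gave 10238 named genes and 876 unnamed probes. The table of probe genes named 23978 probes, of which 23971 matched RefSeq annotation. For 2755 genes several probes were kept. A model of 6 group means over 24 arrays was fitted (lmFit, then eBayes with an intensity trend), so that cortex shares the spread of the other regions (residual degrees of freedom 18, prior 9.53). Tests were two-sided, with Benjamini-Hochberg adjustment over 11114 genes and a threshold of 0.05. For a probe undetected throughout a group, the fold is a lower bound against the lowest detected signal of each array. The number of arrays limits the precision.

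Named genes were the 15 largest rises and falls with separated groups, the other called genes, up to 4 members of each list with the smallest p, Thap1, and Mbp, Mog and Mag in any case; a further gene of that rule is left out. The members and the 41 lists were chosen with earlier results of these data known. Motifs were searched in RefSeq promoters. The fit was tested on data simulated with independent normal noise. Of 67 genes given a change of 0.5 log2 units in KO cortex, 19 were called (28.4%). Of 67 given a change of 1 log2 unit, 61 were called, and 7 genes given no change were called. A list with 0 called members can therefore hold changes of about 0.5. The alternatives were other background, offset, scaling, filter, probe and variance settings, the authors' values, the cortex arrays alone, array weights and leaving out each cortex array.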

Additional observations from a re-analysis of the deposited data

Results flagged for a closer look

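In a test for an array far from the other 3 of its group, 7 of 204 groups passed Dixon's 95% critical value, where chance flags about 1 in 20. On the KO arrays these were the lowest value of Cln3 (4.76, next 5.23), the lowest mean of the cholesterol synthesis list (7.87, next 7.96), the lowest mean of the choroid plexus markers (5.84, next 7.14), the highest mean of the hypothalamic markers (5.69, next 5.10) and the highest mean of the proteasome subunits (9.72, next 9.57). On the control arrays they were the highest value of Opalin (10.04, next 9.52) and the highest mean of the soluble and cytoskeletal oligodendrocyte list (8.49, next 8.29). The KO effect differed between regions for Fxyd6, by 0.78 between cortex and cerebellum, and for Iqcj, by 1.22 between cortex and striatum, by the test of the difference in limma.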

How the results depend on the processing

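Of the 56 named calls in cortex, 10 were called under each of the 20 alternatives (Cuedc2, Ech1, Cln3, Dpagt1, Prepl, E430018J23Rik, Zfp747, Fam117a, Ppp2r3c and Erdr1) and 12 without each single array. The 61 calls became 27 under median scaling, 39 with no filter on dim probes and 220 with array weights, and 16 to 44 without single arrays. The 25 rises became 38 with the authors' processed values, 13 with no filter and 118 with array weights, and 5 to 19 without single arrays. The 36 falls became 9 under median scaling and 102 with array weights, and 11 to 33 without single arrays. Of these, 26 of the 27 calls under median scaling and 61 of the 220 with array weights were shared with the main setting. Fitting the cortex arrays alone called 81 genes, of which 47 were shared with the main setting.

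The 7 called myelin membrane proteins became 0 under median scaling, 4 with the authors' values, 3 with no filter, 4 with no intensity trend, and 0 to 9 without single arrays. The 4 called soluble and cytoskeletal proteins became 0 under median scaling, 1 with the authors' values, with no filter and with no intensity trend, 2 with the mean of a gene's probes, 8 with array weights, and 0 to 2 without single arrays. The 1 gene that differed between cortex and cerebellum became 0 under median scaling, no filter and no intensity trend, and 6 with the authors' values. The 1 between cortex and striatum became 0 with no background correction, median scaling, no filter, array weights, robust variance and both filters on cortex arrays. Each of these was 0 to 1 without single arrays. Thap1 turned to -0.24 (adjusted p = 0.581 in limma) with the mean of its probes, which differ in direction. The causes of the other changes were not tested. Over single genes, 799 of 1178 values kept direction and side of the threshold, 371 lost the call and 7 gained it. No paired analysis was possible because the KO and control groups share no replicate numbers.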
